A study of Homo sapiens with 9 samples.

Results

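IL7R, NEBL, TGM1, SLCO1A2 and GSX2 are 5 of the genes that fell furthest or most clearly when a human retinal pigment epithelial cell line was given cigarette smoke condensate. They are 5 of the 14207 genes that could be tested on the arrays. The first 4 were taken because they were among the largest called falls at 250 µg/ml condensate, and GSX2 because it was the single called fall at 100 µg/ml (limma adjusted p under 0.05). They were thus chosen by their log2 values on these same arrays. Each of the 5 was read by 1 probe set that names no other gene, so no second probe set was there to compare it with. The differences from vehicle are therefore given below as a description, without a test.

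The cells were ARPE-19, an established line derived from human retinal pigment epithelium, the pigmented layer that supports the photoreceptors of the eye. Total RNA was measured on 9 arrays, with 3 each for vehicle control, cigarette smoke condensate at 100 µg/ml and the same condensate at 250 µg/ml. All groups were grown to confluence in serum and then kept in medium with albumin instead, and the condensate was a commercial DMSO stock made from research cigarettes and diluted in medium. No source used here gives the duration of exposure, and nothing in the labels says that the arrays of a group came from separate cultures, so every standard error measures the spread between these arrays, which may be technical.

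The products of these genes have little in common. IL7R is the alpha chain of the receptor for interleukin 7 and, with a different partner chain, of the receptor for thymic stromal lymphopoietin; it signals through JAK kinases and STAT5 and is best known from lymphocytes. NEBL encodes nebulette, an actin-binding protein of the nebulin family that is known from the Z-disc of heart muscle. TGM1 encodes transglutaminase 1, the membrane-bound enzyme that cross-links proteins into the cornified envelope of the epidermis. SLCO1A2 encodes OATP1A2, a membrane carrier that takes up bile acids, steroid conjugates, thyroid hormone and many drugs, and GSX2 encodes a homeobox transcription factor known for patterning the ventral forebrain.

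The sequences around the start sites are shown so that genes that fell together can be compared in the DNA from which their transcripts begin. RefSeq (GRCh38.p14) gave windows from 250 bases before to 50 bases after the start site for 4 of the 5 genes, 9 windows in all, with 5 for NEBL and 2 for SLCO1A2. Capitals mark any match, on either strand, to 4 motifs: the xenobiotic response core GCGTG bound by the aryl hydrocarbon receptor, the antioxidant response motif TGACNNNGC, the AP-1 motif TGANTCA and the E-box CACGTG. The 5 windows below are those of IL7R and GSX2, the first of SLCO1A2, and the 2 NEBL windows that hold a match.
IL7R, chr5:35856641-35856940, plus strand: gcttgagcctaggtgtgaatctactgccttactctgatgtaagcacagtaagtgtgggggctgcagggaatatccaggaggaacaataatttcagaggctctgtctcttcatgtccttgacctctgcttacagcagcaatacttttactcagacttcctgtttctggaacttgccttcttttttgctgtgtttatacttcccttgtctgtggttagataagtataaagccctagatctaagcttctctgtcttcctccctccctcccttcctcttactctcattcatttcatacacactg
SLCO1A2, chr12:21403602-21403901, minus strand: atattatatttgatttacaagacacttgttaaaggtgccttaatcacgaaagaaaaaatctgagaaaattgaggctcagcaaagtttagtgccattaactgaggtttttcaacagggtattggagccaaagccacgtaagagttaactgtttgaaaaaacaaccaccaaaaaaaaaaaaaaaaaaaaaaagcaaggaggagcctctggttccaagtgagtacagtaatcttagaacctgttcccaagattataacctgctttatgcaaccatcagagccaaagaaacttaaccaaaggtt
NEBL, window 1, chr10:21174882-21175181, minus strand: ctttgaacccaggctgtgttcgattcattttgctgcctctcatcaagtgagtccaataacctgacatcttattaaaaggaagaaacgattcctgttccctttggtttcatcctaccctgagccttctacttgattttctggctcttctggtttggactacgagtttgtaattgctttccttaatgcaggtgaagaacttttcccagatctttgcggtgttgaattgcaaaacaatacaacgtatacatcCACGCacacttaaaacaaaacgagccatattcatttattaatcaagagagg
NEBL, window 3, chr10:21174042-21174341, minus strand: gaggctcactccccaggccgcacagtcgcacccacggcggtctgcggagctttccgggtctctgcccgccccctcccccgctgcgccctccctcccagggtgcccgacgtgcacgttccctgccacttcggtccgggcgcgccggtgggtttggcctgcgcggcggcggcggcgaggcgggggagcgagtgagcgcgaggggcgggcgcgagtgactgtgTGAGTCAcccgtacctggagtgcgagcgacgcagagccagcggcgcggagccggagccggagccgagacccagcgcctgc
GSX2, chr4:54099913-54100212, plus strand: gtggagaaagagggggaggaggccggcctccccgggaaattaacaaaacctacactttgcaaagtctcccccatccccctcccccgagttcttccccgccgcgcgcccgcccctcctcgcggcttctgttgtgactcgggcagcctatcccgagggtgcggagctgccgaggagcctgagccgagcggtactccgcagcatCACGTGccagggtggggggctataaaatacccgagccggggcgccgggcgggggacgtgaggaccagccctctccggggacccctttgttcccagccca

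In these letters the windows were unlike each other. That of SLCO1A2 had 35.3% G and C and that of IL7R 44.3%, against 67.7% for GSX2 and a median of 58.7% over all 35116 promoter windows. The NEBL windows ran from 38.7% to 77%. Of the motifs, the xenobiotic response core was found once, on the reverse strand across the start site of NEBL window 1. It occurs in 36.5% of all windows. The AP-1 motif was found once, from position -30 relative to the start in NEBL window 3, and is in 7.71% of all windows. The E-box was found once, from position -49 of GSX2, and is in 7.26% of all windows. The antioxidant response motif, which 13.3% of all windows hold, was found in none of the 9, and neither IL7R nor SLCO1A2 held any of the 4. These are matches of letters in short windows and say nothing of whether a factor binds there.

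Values are the deposited log2 array summaries, so that 1 unit is a 2-fold difference in signal. A level on this scale depends on the probes, and it is not compared between genes. IL7R read 6.14, 7.13 and 6.47 on the 3 vehicle arrays, 4.78, 4.92 and 5.49 at 100 µg/ml, and 3.52, 3.99 and 4.03 at 250 µg/ml. The 3 groups did not overlap, and each step down was larger than the spread within a group. The mean was 5.06 ± 0.37 (SD, n = 3) at 100 µg/ml and 3.85 ± 0.29 at 250 µg/ml, from 6.58 ± 0.50 in vehicle. That is a difference from vehicle of -1.52 (SE 0.29) at the lower dose and -2.74 (SE 0.29) at the higher, which leaves 34.9% and 15% of the vehicle signal. In bulk RNA a smaller number of expressing cells and less RNA in each cell cannot be told apart.

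NEBL read 8.82, 9.44 and 9.13 in vehicle, 6.64, 7.48 and 7.80 at 100 µg/ml, and 6.12, 6.44 and 7.36 at 250 µg/ml. Every treated array lay more than 1 unit below the lowest vehicle array, but the doses overlapped, because the array numbered 3 at 250 µg/ml lay above the array numbered 1 at 100 µg/ml. The difference from vehicle was -1.82 (SE 0.38) at 100 µg/ml and -2.49 (SE 0.38) at 250 µg/ml, or 28.3% and 17.8% of the vehicle signal. NEBL had the widest spread of the 5 among treated arrays, with SDs of 0.60 and 0.64 for the lower and the higher dose against 0.31 in vehicle.

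TGM1 read 5.77, 7.37 and 5.90 in vehicle, 4.15, 4.41 and 4.75 at 100 µg/ml, and 3.83, 3.81 and 4.10 at 250 µg/ml. Here the vehicle arrays disagreed most, since vehicle replicate 2 stood 1.03 above its group mean and the vehicle SD was 0.89. The groups did not overlap, although the highest array at 250 µg/ml lay only 0.05 below the lowest at 100 µg/ml. The difference from vehicle was -1.91 (SE 0.39) and -2.43 (SE 0.39), or 26.6% and 18.5% of the vehicle signal. Without vehicle replicate 2 the differences were -1.40 and -1.92, the smallest falls of TGM1 under any setting tried.

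SLCO1A2 read 7.94, 7.64 and 8.24 in vehicle, 7.03, 7.32 and 6.96 at 100 µg/ml, and 6.33, 6.35 and 6.24 at 250 µg/ml. The groups did not overlap, and the arrays at 250 µg/ml agreed closely, with an SD of 0.057. Its fall was smaller than those of IL7R, NEBL and TGM1, -0.84 (SE 0.16) at 100 µg/ml and -1.63 (SE 0.16) at 250 µg/ml, or 55.8% and 32.2% of the vehicle signal.

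GSX2 read 5.14, 5.43 and 5.40 in vehicle, 4.42, 4.30 and 4.34 at 100 µg/ml, and 4.45, 4.22 and 4.51 at 250 µg/ml. Both doses lay below every vehicle array, and the doses overlapped each other. Its difference from vehicle was -0.97 (SE 0.12) at 100 µg/ml and -0.93 (SE 0.12) at 250 µg/ml, or 50.9% and 52.3% of the vehicle signal. The fall was the smallest of the 5 at 250 µg/ml, and its arrays lay closest together at 100 µg/ml, with an SD of 0.061.

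**Figure D1:**
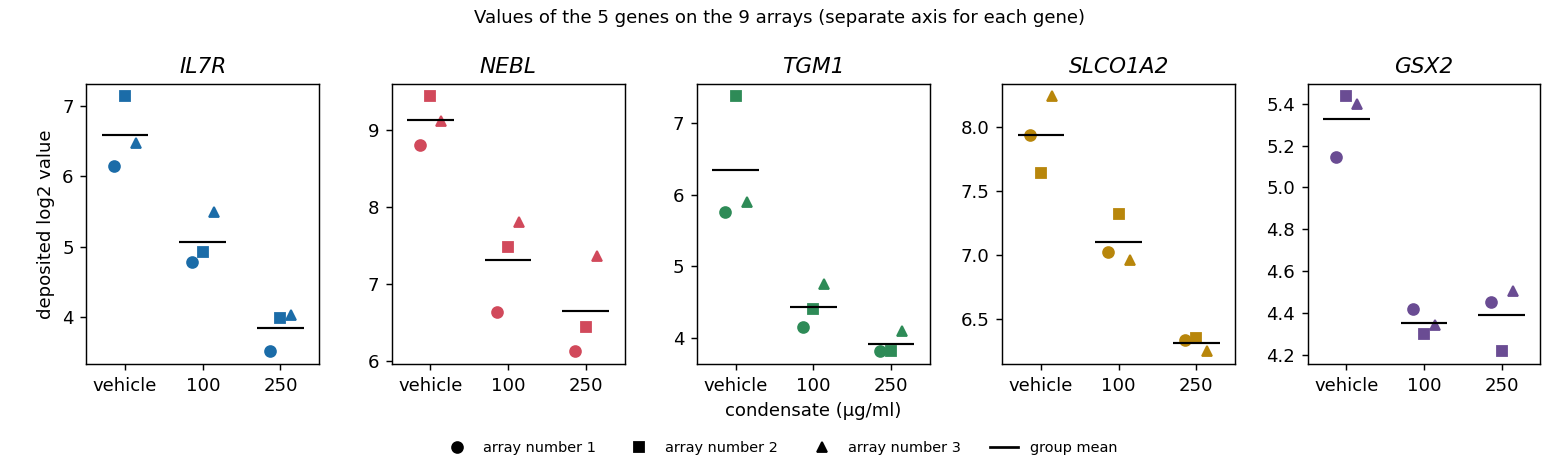
Deposited log2 values of each gene (vertical axis, a separate scale per gene) in vehicle, 100 and 250 µg/ml condensate; each point is 1 array, its shape is the array number and the line is the group mean. IL7R, TGM1 and SLCO1A2 step down at each dose without overlap, NEBL overlaps between the doses, and GSX2 lies at 4.35 and 4.39 at the doses against 5.33 in vehicle.

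By size, IL7R, NEBL and TGM1 held ranks 1 to 3 among the 23 genes called lower at 250 µg/ml (limma, adjusted p under 0.05), SLCO1A2 rank 5 and GSX2 rank 16. Among all genes, called or not, IL7R held rank 4, NEBL 7, TGM1 8, SLCO1A2 30 and GSX2 206. Some genes that were not called thus fell further. Calls in that direction made up 0.162% of the 14207 genes, and at 100 µg/ml the 1 called fall made up 0.00704%. Since these calls chose the members, nothing is read from their count. Just outside, the called gene next below SLCO1A2 at 250 µg/ml was TXNIP, which encodes a thioredoxin-binding protein, at -1.57. At 100 µg/ml GSX2 passed with an adjusted p of 0.0487, a call that held in 5 of 19 alternative settings (adjusted p from 0.021 to 0.31) and was lost with the replicate number as a block (0.093). The lower gene with the next smallest, XAGE3, had a difference of -0.77 with 0.0713 and is named for that place alone. All 5 genes were below every vehicle array at both doses, a pattern found in 11.9% of all genes at 100 µg/ml and 14.3% at 250 µg/ml. The median difference of the 5 was -1.52 at 100 µg/ml and -2.43 at 250 µg/ml, beside -0.051 and -0.044 over all genes. The members were chosen for falls from these same vehicle arrays, which favours both results, so nothing is read from them.

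**Figure D2:**
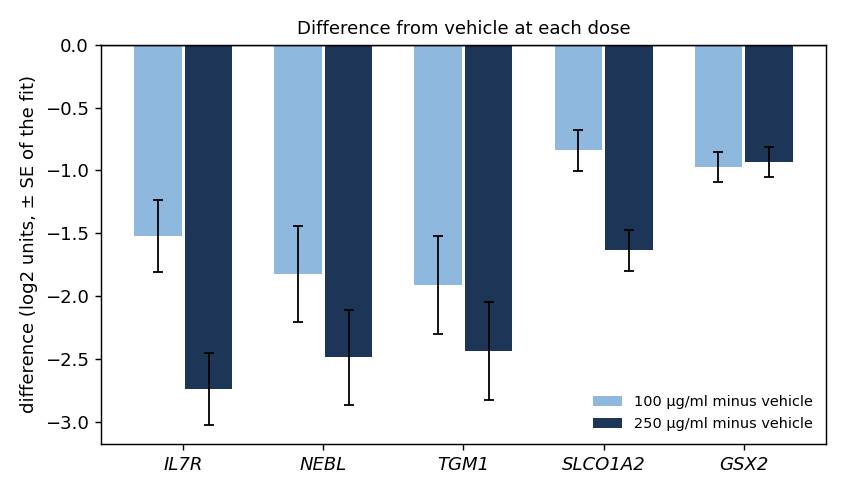
Difference from vehicle in log2 units at 100 µg/ml (light bars) and 250 µg/ml (dark bars) for each gene, with the standard error of the fit as error bars. The dark bar is the longer one for IL7R, NEBL, TGM1 and SLCO1A2, while the bars of GSX2 end at -0.97 and -0.93.

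How much of the fall had already taken place at 100 µg/ml differed from gene to gene. For SLCO1A2 the lower dose held 51.5% of the log2 difference seen at the higher, with a range of 46.6% to 58.2% when single arrays were left out. For IL7R it was 55.5% (50.4% to 63.3%), for NEBL 73.3% (59.8% to 83.3%) and for TGM1 78.5% (72.5% to 84.9%). For GSX2 it was 104% (98.1% to 115%), so on these arrays its difference was about as large at 100 µg/ml as at the higher dose. GSX2 was chosen on its fall at the lower dose, which favours a high share. The other genes were chosen on their falls at the higher dose, which favours a low share. Leaving out single arrays does not remove this effect of the choice, so nothing is read from the gap between GSX2 and the others. Both differences in each share are taken from the same vehicle arrays.

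The comparison of 250 with 100 µg/ml asks directly how far each gene fell further. It was not the contrast that chose the genes, but its 250 µg/ml arrays helped to choose 4 of them and its 100 µg/ml arrays chose GSX2, so its tests are not independent of that choice. IL7R had a difference between the doses of -1.22 (95% interval -1.87 to -0.57), a further 2.32-fold, and SLCO1A2 had a difference of -0.79 (-1.17 to -0.42), a further 1.73-fold. NEBL had a difference of -0.66 (-1.53 to 0.20) and TGM1 one of -0.52 (-1.41 to 0.36), and both intervals include 0. With the replicate number as a block, which pairs the doses, the interval of NEBL was -1.23 to -0.096 and no longer included 0, while that of TGM1 was -1.41 to 0.36. The difference of GSX2 was 0.04 (-0.24 to 0.32, and -0.26 to 0.34 with the block), and its low 100 µg/ml arrays are the ones it was chosen on. After adjustment over all 14207 genes none of the 5 passed (limma adjusted p = 1 for each). In this contrast 0 genes were called among all tested, 0% in either direction. An unadjusted limma p under 0.05 was found for 262 genes (1.84%), of which 122 (0.859%) were lower, IL7R and SLCO1A2 among them. Where no gene differs, a share of 0.05 is expected to pass by chance, so 1.84% is no excess. Nothing is read from IL7R and SLCO1A2 being among them. That count of 262 depended on the setting. It was 467 with the replicate block, 2276 with array weights, 448 when the vehicle arrays were left out of the fit and 514 when the arrays numbered 3 were dropped at each dose, and with single arrays left out it ran from 132 (without 100 µg/ml replicate 2) to 739 (without 100 µg/ml replicate 3).

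Arrays of the same number at both doses varied together, and the number-matched differences remove that shared part. For IL7R they were -1.26, -0.93 and -1.46 for numbers 1, 2 and 3. For SLCO1A2 they were -0.69, -0.97 and -0.71, for NEBL -0.52, -1.04 and -0.44, and for TGM1 -0.32, -0.60 and -0.65. All 12 of these were below 0, also for NEBL, whose groups overlapped. The differences of GSX2 were 0.03, -0.08 and 0.16, each above every number-matched difference of the other 4 genes. A gene is lower in all 3 pairs in 13.6% of all genes. Every 250 µg/ml array lay below every 100 µg/ml array for IL7R, TGM1 and SLCO1A2, as for 2.86% of all genes. The full staircase, with 100 µg/ml below vehicle as well, held for the same 3 and for 41 genes in all, 0.289%. The choice of the genes on these same arrays favours such steps between the doses for the other 4 genes and disfavours one for GSX2. It also favours a step below vehicle for each gene, so nothing is read from the share of 0.289%.

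**Figure D3:**
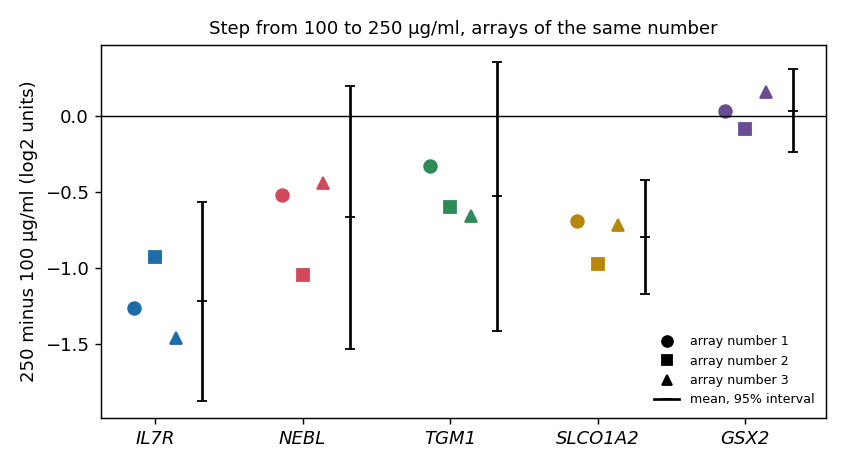
Difference between 250 and 100 µg/ml in log2 units for each gene, with 1 point for each pair of arrays that share a number and, at the right, the mean with the 95% interval of the fit. The points of IL7R, NEBL, TGM1 and SLCO1A2 all lie below 0, and those of GSX2 lie between -0.08 and 0.16.

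Set beside all 23 genes called lower at 250 µg/ml, GSX2 had the highest difference between the doses and IL7R the lowest. The median over the 23 was -0.35, 19 of them were below 0, and 7 had every 250 µg/ml array below every 100 µg/ml array. Over all tested genes the median was 0.013, with 45.6% below 0. The 23 were called on the same 250 µg/ml arrays, which favours a difference below 0, so nothing is read from this gap. GSX2 was chosen on its low 100 µg/ml arrays, which favours a high place among them.

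The genes also differed in which arrays stood high within a group. Vehicle replicate 2 was the highest vehicle array for IL7R, NEBL, TGM1 and GSX2, and the lowest for SLCO1A2. At both doses the array numbered 3 was the highest for IL7R, NEBL and TGM1, above the group mean by 0.43, 0.50 and 0.31 at 100 µg/ml and by 0.18, 0.72 and 0.19 at 250 µg/ml. For SLCO1A2 that same array was the lowest at both doses, at -0.14 and -0.065 from its group mean. For GSX2 it was the highest at 250 µg/ml alone, 0.114 above the group mean. IL7R, NEBL and TGM1 thus shared a pattern of array differences that SLCO1A2 did not show. Over all genes the deviations of the arrays numbered 3 correlated at 0.68 between the doses. A like place at both doses is thus not particular to these genes, and the share of all genes with this pattern was not counted. The arrays numbered 3 of the doses were also left out, a setting added with the data in view. NEBL then had differences from vehicle of -2.07 and -2.85, IL7R of -1.73 and -2.83 and TGM1 of -2.07 and -2.53. These larger falls follow from dropping the highest array of each dose. SLCO1A2, whose lowest array was dropped at each dose, had smaller falls, with differences of -0.77 and -1.6. GSX2 had differences of -0.968 and -0.992.

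Signal strength sets a limit on the size of a fall. NEBL and SLCO1A2 were above the upper quartile of the array on all 3 vehicle arrays, and at 250 µg/ml all their arrays were still above the array median. IL7R, TGM1 and GSX2 were above the array median in vehicle and below it on all 3 arrays at 250 µg/ml, and no reading of the 5 genes on any array was below the lower quartile of its array. Array summaries compress the fold differences of dim genes, which bears on IL7R, TGM1 and GSX2 at the higher dose. No detection calls were used, and a low value does not show whether the transcript was still made.

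The genes whose pattern was most like that of each member were found by the root mean square difference over the 9 arrays, after each gene was centred on its own mean. IL7R was among the 3 nearest genes of both NEBL and TGM1. IL7R and TGM1 differed by 0.37 log2 units, IL7R and NEBL by 0.37, and NEBL and TGM1 by 0.41. The values were not scaled, so the distance depends on the size of the fall. IL7R, NEBL and TGM1 were chosen for large falls, which favours their lying near each other. The nearest gene to NEBL was TLL1, which encodes a tolloid-like metalloproteinase (0.36). It had differences from vehicle of -1.27 and -2.06. Nearest to TGM1 were SELENOP, the gene of the secreted selenium carrier selenoprotein P (0.34), and UNC13D, which acts in the release of secretory granules (0.35). SELENOP had differences from vehicle of -1.39 and -1.70 and UNC13D of -1.30 and -1.63. None of TLL1, SELENOP and UNC13D passed at 250 µg/ml (limma adjusted p = 0.0504, 0.0933 and 0.0820).

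SLCO1A2 lay further from IL7R, NEBL and TGM1, at 0.64 to 0.74, and its smaller fall adds to these distances. It lay closest to TXNIP (0.15), the calcium-dependent phosphodiesterase gene PDE1C (0.21) and the membrane ubiquitin ligase gene MARCHF1 (0.23). TXNIP fell by 1.57 at 250 µg/ml (limma adjusted p = 0.011) and PDE1C fell by 1.25 (0.0089), with differences of -0.73 and -0.52 at 100 µg/ml. MARCHF1 had differences of -0.61 and -1.24 and did not pass (0.34 and 0.080). GSX2 lay closest to NANOS1, an RNA-binding regulator of germ cells (0.11), the receptor phosphatase gene PTPRH (0.13) and the adenosine receptor gene ADORA1 (0.13). Since they were picked for likeness to GSX2 over these arrays, a like level at both doses follows from the choice. NANOS1 had differences from vehicle of -0.84 and -0.82, PTPRH of -0.87 and -0.91 and ADORA1 of -0.69 and -0.78. NANOS1 and PTPRH passed at 250 µg/ml (adjusted p = 0.036 for each), and neither passed at 100 µg/ml (0.078 and 0.092). A dim gene with little spread finds near neighbours more easily than one with a wide spread, so the distances are not compared between members.

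**Figure D4:**
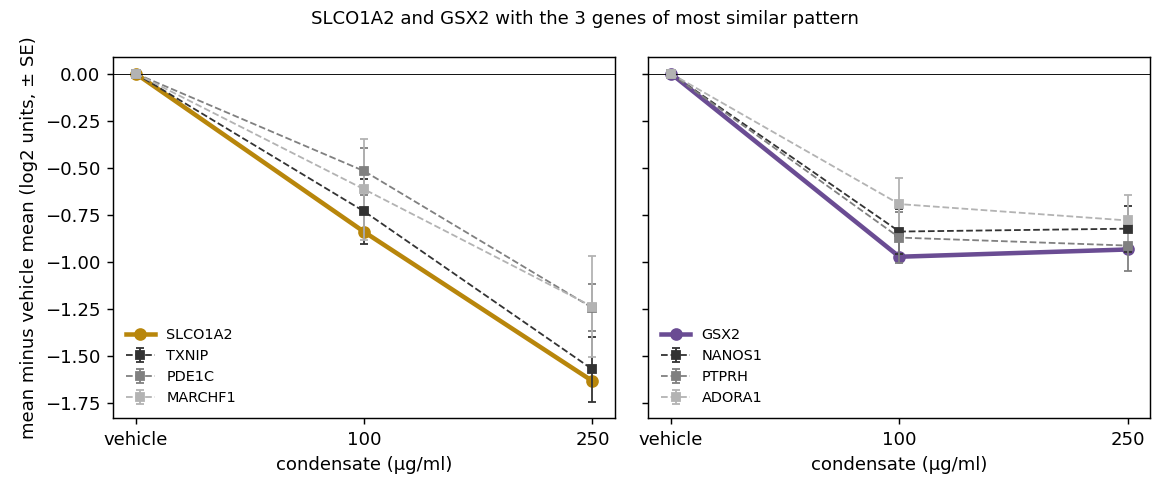
Mean difference from vehicle in log2 units at vehicle, 100 and 250 µg/ml for SLCO1A2 (left) and GSX2 (right), each with the 3 genes of most similar pattern (dashed, with the standard error of the fit). The genes on the left are lower at 250 than at 100 µg/ml, while GSX2, NANOS1, PTPRH and ADORA1 stay within 0.09 of their level at 100 µg/ml.

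IL7R acts with partner chains, ligands and kinases. Of 25 listed genes of the interleukin 7 and thymic stromal lymphopoietin pathway, 18 were measured alone, and 0 passed in either direction at either dose (limma over all genes, where calls made up 0.0633% at 100 µg/ml and 0.549% at 250 µg/ml). With so small a share called among all genes, a count of 0 in a list of this length, or in those that follow, is no result about the list. Their median difference was -0.086 at 100 µg/ml and -0.11 at 250 µg/ml. Of the ligands, IL7 had differences of -0.31 (SE 0.12, adjusted p = 0.29) and -0.12 (SE 0.12, 0.62), and TSLP of -0.098 and -0.11. Of the kinases, JAK1 had differences of -0.28 and -0.23 and JAK3 of -0.11 and -0.045. The furthest from 0 at 250 µg/ml was PIK3R1, the regulatory subunit of phosphoinositide 3-kinase, at 0.67 (SE 0.20, adjusted p = 0.16), named after its values were seen. The partner chains IL2RG and CRLF2 and both STAT5 genes were not measured alone and are not reported.

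For NEBL, 31 of 40 listed genes of the nebulin family, the Z-disc and the actin filament were measured alone and 0 passed at either dose. Below the vehicle mean lay 25 of the 31 at each dose, where 59.2% and 57.3% of all genes did, and the medians were -0.14 and -0.16. The other nebulin family genes had small differences at 250 µg/ml, NEB of -0.16 (SE 0.092), NRAP of -0.16 (SE 0.091) and LASP1, the family member of non-muscle cells, of -0.13 (SE 0.17). Nearest to the threshold were the actin cross-linker ACTN4 at -0.65 (SE 0.13, adjusted p = 0.063) and the focal adhesion gene VCL at -0.65 (SE 0.14, adjusted p = 0.081), both chosen after their values were seen. Furthest from 0 at 250 µg/ml was PDLIM1 at -0.83 (SE 0.26, limma adjusted p = 0.18), also named after its values were seen.

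All 8 listed members of the transglutaminase family besides TGM1 were measured, and 0 passed in any comparison. TGM2, the widely expressed tissue transglutaminase, had differences of 0.63 (SE 0.25, adjusted p = 0.31) at 100 µg/ml and -0.12 (SE 0.25, 0.84) at 250 µg/ml. TGM3, TGM5 and F13A1 had differences between -0.046 and -0.026 at 250 µg/ml. Of 33 cornified envelope genes, the substrates and partners of TGM1 in epidermis, 25 were measured alone, 0 passed, and the medians were -0.095 and -0.14. Involucrin (IVL), a major substrate, had differences of 0.55 (SE 0.21, adjusted p = 0.29) and -0.07 (SE 0.21, 0.88). The furthest from 0 was the plakin gene PPL, at -0.95 (SE 0.39) and -1.36 (SE 0.39, adjusted p = 0.15), named after its values were seen.

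Of 10 other SLCO genes, 8 were measured alone and 0 passed in any comparison. The medians were -0.055 and -0.083, close to those of all genes. SLCO4A1 had the largest difference and also the widest spread, 0.80 (SE 0.55, adjusted p = 0.49) at 250 µg/ml, and SLCO3A1 had 0.20 (SE 0.29). SLCO2A1, the prostaglandin transporter, had -0.13, SLCO2B1 0.089, SLCO1C1 -0.12, SLCO4C1 -0.23, SLCO5A1 -0.044 and SLCO6A1 -0.22 at 250 µg/ml. For GSX2, 21 of 24 listed ParaHox and forebrain patterning genes were measured alone and 0 passed, with medians of -0.047 and -0.071. Its closest relative GSX1 had differences of 0.0085 and -0.038, DLX1 of -0.0075 and -0.092 and DLX2 of 0.0075 and -0.0021. The furthest from 0 at 250 µg/ml, named after their values were seen, were PAX6 at -0.56 (SE 0.18, adjusted p = 0.25) and -0.39 (SE 0.18, 0.32), and HES1 at -0.30 (SE 0.20, 0.50) and -0.36 (SE 0.20, 0.40).

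**Figure D5:**
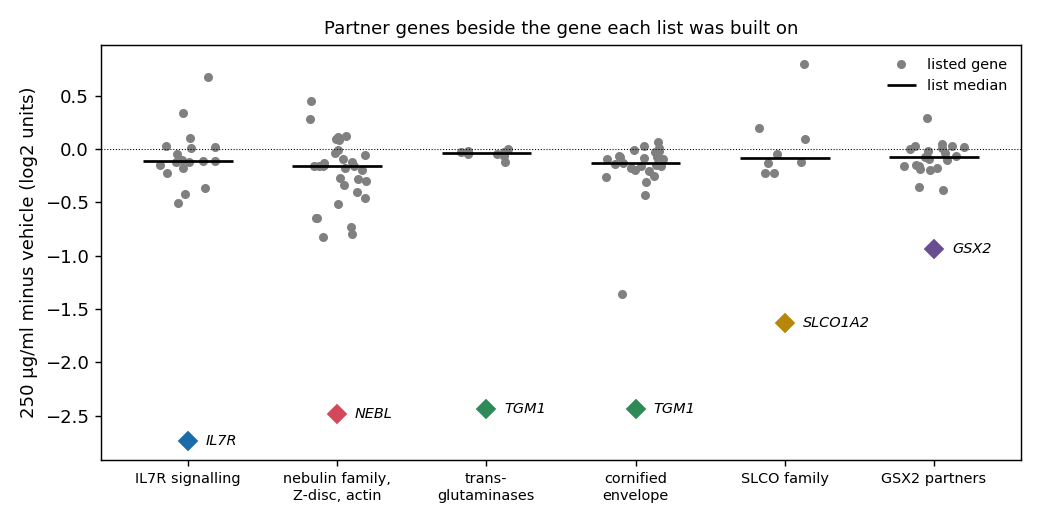
Difference between 250 µg/ml and vehicle in log2 units for each listed partner gene (grey points, with the list median as a line) and for the gene the list was built on (diamond). The list medians lie between -0.16 and -0.037, and each diamond lies below them, but the diamonds were chosen for their fall.

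The labelled cell type was set against its markers by their place on each array. Since a level depends on the probes, a marker below the array median does not decide the label. Of 13 measured markers, MITF, OTX2, TYRP1 and RDH5 were above the array median on all arrays, and 7, with RPE65, RLBP1 and BEST1 among them, were below it on all. Of 6 simple epithelium markers, KRT8, KRT18 and CLDN1 were above the median on all arrays, and KRT19, CDH1 and EPCAM below it on all. Of 10 T lymphocyte markers 9 were below the median on all arrays, the exception being CD7, as were all 5 measured striated muscle markers. Of 5 measured keratinocyte markers 3 were below it on all arrays and 0 above it on all. The pigment epithelium markers averaged between 4.46 and 4.92 on the vehicle arrays, between 4.24 and 4.47 with 100 µg/ml and between 4.25 and 4.42 with 250 µg/ml, with 0 of 13 past the threshold, and their part in the falls was not tested. Fibroblast markers, 7 measured, averaged between 3.62 and 4.32 in vehicle, between 3.48 and 3.72 with 100 µg/ml and between 3.49 and 3.73 with 250 µg/ml, and their part was not tested either. The 4 measured neural progenitor markers, PAX6 among them, averaged between 4.30 and 4.34 in vehicle, between 4.04 and 4.16 with 100 µg/ml and between 4.05 and 4.20 with 250 µg/ml. The simple epithelium markers averaged between 5.99 and 6.10, between 5.72 and 5.95 and between 5.75 and 5.95 in the same order. Neither list overlapped between vehicle and the doses. At 250 µg/ml the pigment epithelium markers lay below vehicle as well, while at 100 µg/ml they overlapped it. Of single genes, 11.9% at 100 µg/ml and 14.3% at 250 µg/ml lay below every vehicle array. Such a share was not computed for lists. PAX6 had the largest difference in the neural progenitor list, -0.56 at 100 µg/ml, beside -0.056 for SOX1, -0.12 for NES and -0.18 for DCX. In the neural progenitor and simple epithelium lists 0 genes passed at either dose, and the part of both was not tested.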

How the data were processed

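Expression in 9 ARPE-19 samples was measured on Affymetrix exon arrays with whole-transcript targets, per the labels' protocols. The deposited values are log2 summaries made by the authors; RMA, Partek and build hg18 are listed in the submitters' processing notes, without versions, settings, filters or the role of each. The table held 17629 probe sets, of which the platform annotation gave 1 gene for 14378, several for 2405 and none for 846. RefSeq (GRCh38.p14) gave current symbols by gene number for all but 28 of these. Where a gene had several probe sets (169 genes), the brightest by mean was kept. The number of arrays limits the precision.

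All 9 arrays were fitted with limma 3.58.1 in R 4.3.3, with 1 mean per group, default moderation and Benjamini-Hochberg adjustment over 14207 genes (threshold 0.05). The fit was tested on simulated data with independent noise, without the shared deviations of same-numbered arrays given below. Changes of -1 log2 unit were called in 68% of cases at 100 µg/ml, 59% at 250 µg/ml and 56% between the doses. For changes of -2 these shares were 94%, 92% and 90%. Named genes were the members, up to 4 called genes per partner list, a set of partners fixed by name and the 3 genes of nearest pattern per member; others are said to be chosen after their values were seen, and the result of 1 gene is not reported here. Members and lists were chosen with earlier results of these data known. Same-numbered arrays at 100 and 250 µg/ml had deviations correlated at 0.60, 0.44 and 0.68. The numbers were thus taken to pair the doses, from the data and not from the labels. Between vehicle and 100 µg/ml the correlations were 0.265, -0.14 and 0.031. Between vehicle and 250 µg/ml they were 0.226, -0.066 and -0.086. No pairing with vehicle was assumed, except that the replicate block also pairs vehicle.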

Additional observations from a re-analysis of the deposited data

How the results depend on the processing

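Over 19 alternatives, the 10 differences of the 5 genes from vehicle stayed below 0. They ran from -2.96 to -2.46 for IL7R at 250 µg/ml, -2.85 to -2.23 for NEBL, -2.72 to -1.92 for TGM1, -1.78 to -1.48 for SLCO1A2 and -1.03 to -0.85 for GSX2. The call at that dose held in 16, 11, 10, 16 and 12 of the 19, in the same order, and that of GSX2 at 100 µg/ml in 5. Between the doses none of the 5 genes was called under any alternative, with adjusted p from 0.083 to 1, and IL7R, NEBL, TGM1 and SLCO1A2 stayed below 0. Between the doses the replicate block gave -1.22 (SE 0.22) for IL7R and -0.66 (SE 0.24) for NEBL. The block pairs vehicle as well as the doses by number. The 95% interval of NEBL then excluded 0, and no adjusted call between the doses changed. GSX2, at 0.04 between the doses, lay between -0.0185 (without CSC_250 replicate 3) and 0.126 when 1 array was dropped, and at -0.024 when both dose arrays numbered 3 were dropped, an alternative added with the data in view; its sign is not determined.

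The counts of called genes were unstable. At 100 µg/ml the 9 genes became 4 after quantile normalization, 73 with array weights, 0 with unmoderated variance, 1 with only the 6 arrays of the comparison, 3 with the replicate block, 47 without the arrays numbered 3, and 1 to 57 with single arrays left out, the highest without control replicate 3. At 250 µg/ml the 78 genes, 55 higher and 23 lower, became 153 with arrays centred on their median (82 higher, 71 lower), 129 after quantile normalization (65 and 64), 130 without dim genes, 234 with array weights, 164 with a mean-variance trend, 3 with unmoderated variance, 1 with 6 arrays, 122 with the replicate block, 167 without the arrays numbered 3, and 4 to 296 with single arrays left out. The lowest was without CSC_250 replicate 2 and the highest without control replicate 3. The cause was not tested.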
